A study of Zea mays with 12 samples.

Results

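Bract primordia of the maize mutant *tasselsheath1* (*tsh1*) were compared with those of the inbred line B73 across all 20168 genes of the deposited table. The members are every listed gene in the 3 *tsh1* libraries and the 3 B73 libraries, which were taken by genotype label from a series of 12 libraries. Of the 20168 genes, 4 were set apart, namely *tsh1* itself and 3 neighboring genes that the study places in the deletion of the mutant allele, which leaves 20164 genes outside the deletion. The mutant plants carried *tsh1-ref*, an allele with a *Mutator* transposon insertion and a large deletion, after repeated crossing to B73, and the B73 plants were the unmutated inbred. All plants were grown untreated in the same greenhouse conditions, and the libraries of both genotypes came from laser-captured cells of ear bracts at the uppermost nodes, where the bract ridge but not the neighboring meristem can be seen. The captured RNA was amplified in vitro before sequencing. The labels call the libraries of a genotype biological replicates without naming plants, so p-values measure the spread between libraries. In the main fit, that spread came from all 12 libraries of the series, which include *tsh4* mutants and *tsh1 tsh4* double mutants.

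In a maize inflorescence, the leaf that subtends each branch or spikelet pair, the bract, is initiated and then stops growing while the meristem in its axil becomes a branch. *Tsh1* encodes a GATA zinc finger transcription factor that is expressed in the bract primordium and holds back its growth, so mutants form leafy bracts and fewer branches. The Arabidopsis ortholog *HANABA TARANU* (*HAN*) acts at boundaries between meristems and organs, where few cells divide and hormone levels differ from those on either side.

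Each value is a normalized CPM, the reads of a gene scaled to the size of the library, and log2 fold changes (log2FC, with ± for their SE) were taken on log2(CPM + 0.1), which understates the change of weakly expressed genes. Between 49481413 and 87573173 reads per library lay on listed genes in *tsh1*, against 56502030 to 110703826 in B73. At most 3 reads, or 0.0265 to 0.0651 CPM depending on the library, were treated as not detected, and this floor covers counting error only. Across genes, Pearson's r was 0.978 to 0.985 between *tsh1* libraries and 0.984 to 0.991 between B73 libraries, against 0.969 to 0.985 between genotypes, so the ranges overlapped. Genes are not independent replicates. Deviations from the genotype means had 1 main axis that held 46.0% of the spread, with replicate 2 of *tsh1* and replicate 1 of B73 on one side (scores −0.30 and −0.22) and the other 4 libraries on the opposite side (0.08 to 0.18).

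The targeted gene was nearly silent in the mutant. *Tsh1* (GRMZM2G325850) was at 0.810, 0.401, and 0.369 CPM in *tsh1*, against 89.6, 60.7, and 52.1 CPM in B73, with 67, 23, and 17 reads left in the mutant libraries. Every *tsh1* library was far below every B73 library, and the mean of 0.527 ± 0.246 CPM (SD, n = 3) in *tsh1* was 0.781% of the 67.4 ± 19.6 CPM in B73. The table names no gene, and this row was identified from the genotype means that the study plots from the same libraries, so the loss is given as a description and does not check the labels independently.

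The 3 genes of the deletion had 0 reads in every *tsh1* library. GRMZM2G026013 was at 0, 0, and 0 CPM in *tsh1*, against 19.9, 13.5, and 14.6 CPM in B73, which is at least 312-fold lower in *tsh1* when set against a floor of 3 reads per library, averaged over the genotype. GRMZM5G847466 was at 0, 0, and 0 CPM in *tsh1*, against 3.24, 2.66, and 2.45 CPM in B73, at least 54.3-fold lower, and GRMZM2G026188 was at 0, 0, and 0 CPM in *tsh1*, against 0.786, 0.335, and 0.411 CPM in B73, at least 9.97-fold lower. The study drew the extent of the deletion from the absence of these transcripts in these libraries, so the zeros are what chose the genes and carry no test. In the order of assembly Zm-B73-REFERENCE-NAM-5.0, the 3 genes follow one another, with no other uniquely matched gene between them. The row of *tsh1* has no match there. The flanking uniquely matched genes were GRMZM2G132929, at 409.8, 451, and 469 CPM in *tsh1*, against 312, 355, and 332 CPM in B73 (log2 fold change 0.41), and GRMZM2G114592, at 23.8, 26.7, and 25.4 CPM in *tsh1*, against 25.3, 23.8, and 24.6 CPM in B73 (log2 fold change 0.04). Neither passed the test (adjusted p = 0.358 and 0.986, limma with Benjamini-Hochberg adjustment).

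**Figure D1:**
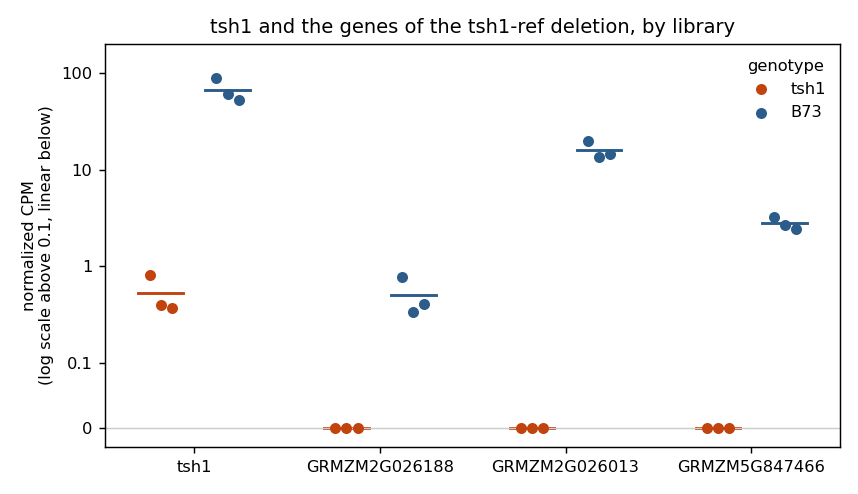
Normalized CPM (log scale above 0.1, linear below) of *tsh1* and the 3 genes of the deletion. Each point is a library and each bar the mean of 3, with *tsh1* left of B73. The 3 deletion genes sit at 0 in all *tsh1* libraries, and *tsh1* keeps 0.369 to 0.810 CPM.

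Outside the deletion, 230 genes were differentially expressed, 89 higher and 141 lower in *tsh1*. A differentially expressed gene (DEG) had an adjusted p of at most 0.05 by limma after Benjamini-Hochberg adjustment over all genes and at least a 1-unit log2 fold change either way. With *tsh1* and the deletion, 234 of 20168 genes (1.16%) were called, 89 higher (0.441%) and 145 lower (0.719%), and 1875 genes (9.3%) had an unadjusted p of at most 0.05. The libraries of the genotypes did not overlap in any of the 230 genes, as in 13.2% of all genes. Changes were mostly moderate. The median absolute log2 fold change of the 230 was 1.63, and 59 changed by at least 2 on the log2 scale, 27 higher and 32 lower. Genes that fell had a median of 1.82 CPM in *tsh1* and 7.04 CPM in B73, and genes that rose had a median of 4.79 CPM in *tsh1* and 1.46 CPM in B73. Only 12 of the 230 reached a mean of 100 CPM in either genotype, and 25 stayed under 1 CPM in both.

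The number of calls depended on single libraries. Without replicate 2 of *tsh1* it was 286, without replicate 1 or 3 of *tsh1* it was 163 or 156, and without replicate 1, 2, or 3 of B73 it was 164, 171, or 178. The lower calls numbered 89 without replicate 3 of *tsh1* and 94 without replicate 1 of B73, against 145 with all libraries. In all 6 fits that left out a library, 119 of the 234 genes kept their call, 48 higher and 71 lower. The median log2 fold change of all genes was 0.0028.

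**Figure D2:**
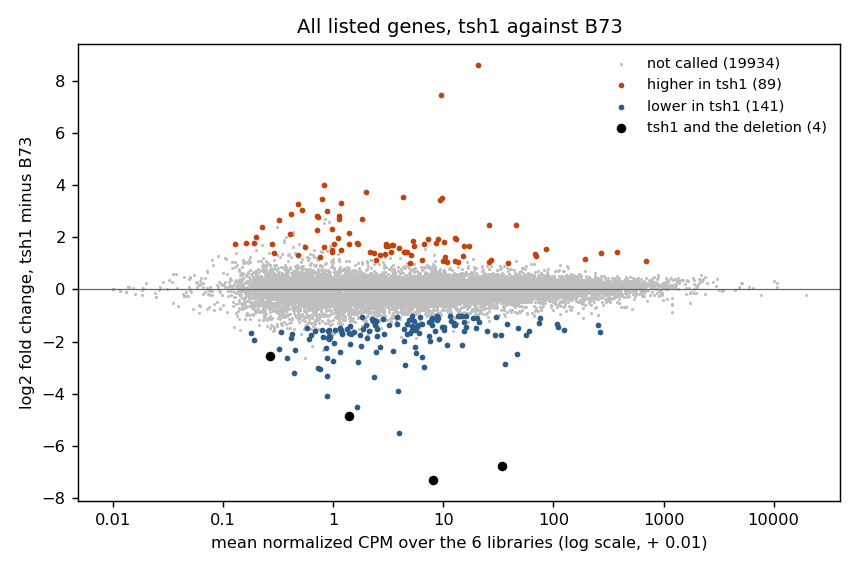
Log2 fold change in *tsh1* relative to B73 against mean normalized CPM over the 6 libraries (log scale) for all listed genes. Colored points are the 89 genes called higher and the 141 called lower outside the deletion, and black points are *tsh1* and the 3 genes of the deletion, which lie at −2.54 to −7.31, values that depend on the pseudocount where the mutant is at 0.

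DEGs were concentrated on the chromosome of the deletion and close to it. The gene table placed 13958 of the 20168 identifiers at a single gene, 1154 of them on this chromosome. The deletion lies near one end, with 1111 placed genes before it and 40 after it. Among the 50 nearest placed genes before the deletion and the 40 after it, 9 of 90 (10%) were DEGs, 3 higher and 6 lower. Within 100 places, 19 of 140 (13.6%) were DEGs, 5 higher and 14 lower. On the same chromosome more than 200 places away, 8 of 911 genes (0.878%) were called, and on the other chromosomes 128 of 12804 (1.0%), close to the 1.16% of all genes. Before the deletion, 16 of 100 genes within 100 places were DEGs, and 3 of all 40 placed genes after it. Within 25 places, the count was 3 of 25 on each side. Within 10 places, it was 0 of 10 before and 1 of 10 after, so the difference between the sides depended on the window.

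Smaller differences were also frequent there. Within 100 places of the deletion, the libraries of *tsh1* and B73 did not overlap in 58 of 140 genes (41.4%), against 13.0% on the other chromosomes, and the median absolute log2 fold change was 0.39 against 0.16. Beyond 200 places on the same chromosome, these values were 11.7% and 0.16. The median signed log2 fold change within 100 places was −0.08, so the differences ran in both directions. Without the deletion and the genes placed within 100 places, 211 DEGs remained, 84 higher and 127 lower, a count added after the data were seen. It includes 72 DEGs among the 6209 genes without a place, whose distance from the deletion is not known. The *tsh1-ref* allele came with the chromosome segment around it, and an effect of the lost *tsh1* product on a nearby gene cannot be told apart from a difference carried by that segment.

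Some nearby DEGs were among the strongest falls. GRMZM2G089549, the sixth placed gene after the deletion, was at 0.012, 0.262, and 0.022 CPM in *tsh1*, against 10.3, 6.82, and 6.18 CPM in B73, a log2FC of −5.49 ± 0.42 (adjusted p = 8.95e-07). It was close to silent in every mutant library, although the 5 placed genes between it and the deletion were not called. *COR413-TM1* (GRMZM2G102605), a gene of the COR413 family of cold-regulated membrane proteins 23 places before the deletion, was at 29.3, 26.7, and 33.1 CPM in *tsh1*, against 79.8, 96.2, and 92.2 CPM in B73 (log2FC −1.59 ± 0.17, adjusted p = 3.76e-05). GRMZM2G160417, 16 places before, was at 9.66, 12.6, and 14.9 CPM in *tsh1*, against 41.5, 36.3, and 34.0 CPM in B73 (log2FC −1.60 ± 0.20, adjusted p = 2.64e-04). Farther out, at 53 places before the deletion, GRMZM2G069016 was at 9.49, 16.3, and 16.9 CPM in *tsh1*, against 87.2, 67.9, and 80.3 CPM in B73 (log2FC −2.49 ± 0.25, adjusted p = 3.16e-05). Each of these fell in every mutant library and kept its call in all 6 fits without a library.

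A further fall and 3 rises completed the calls within 50 places before the deletion. GRMZM2G023190, at 27 places, averaged 0.213 ± 0.234 CPM in *tsh1* and 1.75 ± 0.566 CPM in B73 (SD, n = 3 each; log2 fold change −2.76). The rises were those of GRMZM2G079583 (43 places, log2 fold change 1.69), GRMZM2G155686 (40 places, 1.97), and GRMZM2G394962 (13 places, 1.06). After the deletion, *sig3* (GRMZM5G830932), by its name a plastid sigma factor gene, fell to 3.99, 3.56, and 3.17 CPM in *tsh1*, against 10.6, 7.58, and 9.30 CPM in B73 (log2 fold change −1.33), and GRMZM2G158998 fell by 1.59 on the log2 scale. The call of GRMZM2G155686 was lost without replicate 3 of *tsh1* or replicate 2 or 3 of B73, that of GRMZM2G394962 without replicate 1 or 3 of *tsh1* or replicate 1 of B73, and that of GRMZM2G158998 without replicate 2 or 3 of *tsh1* or of B73, with adjusted p-values of up to 0.127 by limma. GRMZM2G158998 was not called by edgeR, nor GRMZM2G394962 with a pseudocount of 1. The other 6 of the 9 nearby DEGs kept their calls without any 1 library.

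**Figure D3:**
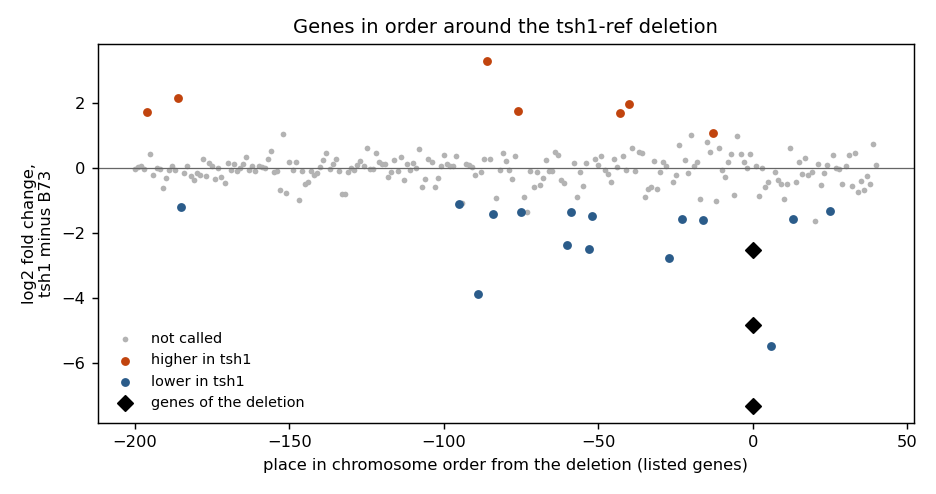
Log2 fold change in *tsh1* relative to B73 of each placed gene, in chromosome order, from 200 places before the deletion to the 40 after it. Colored points are DEGs and diamonds are the genes of the deletion. The DEGs gather within 100 places of the deletion, 19 of 140 genes.

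Genes of leaf growth were higher in *tsh1* where they were called. YABBY genes encode transcription factors of lateral organs that are expressed as an organ separates from the meristem and expands. *Zyb14* (GRMZM2G005353) was at 97.6, 91.0, and 103 CPM in *tsh1*, against 28.3, 52.9, and 41.9 CPM in B73, a log2FC of 1.28 ± 0.22 (adjusted p = 0.00556). *Yab3* (GRMZM2G106204) was at 5.10, 6.26, and 7.98 CPM in *tsh1*, against 1.62, 2.64, and 2.83 CPM in B73 (log2FC 1.42 ± 0.24, adjusted p = 0.00419). *ZmNGA2* (GRMZM2G142999), a B3 domain gene whose Arabidopsis NGATHA relatives act in leaf margins, was at 2.92, 3.1, and 3.51 CPM in *tsh1*, against 0.980, 1.15, and 1.2 CPM in B73 (log2FC 1.44 ± 0.26, adjusted p = 0.00686). For all 3 genes, every mutant library exceeded every B73 library, and the calls held in all 6 fits without a library, although that of *ZmNGA2* was lost with a pseudocount of 1.

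Among the 14 leaf genes that the study names, these 3 rose, none fell, and the other 11 did not pass the test. Over all genes, 0.441% were called higher and 0.719% lower. The study chose this list on these samples, so its direction is not independent evidence. Its median log2 fold change was 0.92, beside 0.0028 for all genes, and the libraries did not overlap in 7 of 14, each higher in *tsh1*, as in 5.75% of all genes. *Drl1* (GRMZM2G088309), a YABBY gene of leaf patterning, was at 6.49, 6.32, and 8.11 CPM in *tsh1*, against 4.59, 2.68, and 3.48 CPM in B73 (log2 fold change 0.97, adjusted p = 0.135), and *ZmTCP2* (GRMZM2G115516) was at 2.83, 2.86, and 4.73 CPM in *tsh1*, against 1.63, 2.06, and 1.42 CPM in B73 (0.96, adjusted p = 0.0586). Both had separate libraries but missed the threshold, as did *ZmTCP7* and *ZmNGA3* (log2 fold changes 0.88 and 0.96). *Yab1* (GRMZM2G054795) was at 120.5, 65.9, and 146 CPM in *tsh1*, against 39.2, 101, and 57.8 CPM in B73 (adjusted p = 0.556), and its lowest mutant library lay within the B73 range. *Drl2*, the only leaf gene with a negative value, was at 1.70, 0.645, and 0.824 CPM in *tsh1*, against 0.742, 1.09, and 1.56 CPM in B73 (log2 fold change −0.14). The growth-regulating factor genes *ZmGRF3* and *ZmGRF5* had log2 fold changes of 0.30 and 0.15 with overlapping libraries. *Zyb15* (GRMZM2G529859), the bract marker among the YABBY genes, was strongly expressed in both genotypes, at 1804, 1347, and 1776 CPM in *tsh1*, against 1033, 1563, and 1214 CPM in B73 (adjusted p = 0.668).

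None of the 5 boundary and ligule genes that the study names passed the test in *tsh1*, beside calls in 1.16% of all genes. All 5 had negative log2 fold changes, with a median of −0.70. The list was chosen on these samples too. *Liguleless2* (*lg2*, GRMZM2G060216), a bZIP gene that positions the ligule, was at 33.2, 45.1, and 39.0 CPM in *tsh1*, against 92.8, 68.7, and 67.5 CPM in B73 (log2FC −0.96 ± 0.29, adjusted p = 0.160 by limma with Benjamini-Hochberg adjustment). Its relative *lrs1* was at 14.3, 14.2, and 14.6 CPM in *tsh1*, against 30.3, 16.7, and 25.3 CPM in B73 (−0.70, adjusted p = 0.358). *ZmATH1* (GRMZM2G161435), ortholog of an Arabidopsis homeobox gene of organ boundaries, was at 61.9, 98.7, and 75.7 CPM in *tsh1*, against 193, 114, and 151 CPM in B73 (−0.95, adjusted p = 0.0687). In these 3 genes and *ZmLOF2*, all mutant libraries lay below the B73 libraries, as in 7.42% of all genes, whereas the libraries of *ZmCUC3* overlapped. In a 2-sided exact permutation test, each of the 4 had p = 0.1, and 3 against 3 libraries cannot give less.

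*Barren stalk1* (*ba1*, GRMZM2G397518), which is needed to start axillary meristems in the inflorescence, was at 87.5, 96.3, and 93.2 CPM in *tsh1*, against 127, 122, and 148 CPM in B73 (log2 fold change −0.52, adjusted p = 0.438, limma with Benjamini-Hochberg adjustment). *Barren stalk fastigiate1* (*baf1*, GRMZM2G072274) was at 27.3, 28.2, and 17.2 CPM in *tsh1*, against 32.3, 45.6, and 35.4 CPM in B73 (−0.66, adjusted p = 0.333). The genotypes did not overlap for either gene, and neither was called. Both are known to be expressed beside the axillary meristem, and *ba1* and *baf1* therefore also mark cells next to the bract.

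The captured cells were described with marker lists. In tissue captured in bulk, fewer cells of a type and less RNA per cell cannot be told apart. The lists share genes with the leaf and axillary results above, so they are not an independent check. The 6 lateral organ markers summed to 1517 to 2042 CPM in *tsh1*, against 1107 to 1724 CPM in B73, with overlap. Most of each sum was *zyb15*, and 2 of the 6 were called, both higher, namely *zyb14* and *yab3*. The 9 measured meristem markers summed to 723 to 868 CPM in *tsh1*, against 880.0 to 1002 CPM in B73. The 6 markers of axillary meristems and boundaries summed to 157 to 176 CPM in *tsh1*, against 221 to 241 CPM in B73, and 4 markers of spikelets and floral organs to 409 to 449 CPM in *tsh1*, against 482 to 556 CPM in B73. Each of these 3 sums was lower in every *tsh1* library than in every B73 library, although no single marker of the 3 lists was called and members went both ways. The floral sum covers only 4 of the 10 listed symbols. Unmatched were *zmm4* and *zmm15* among others, although genes named *m4* and *m15* were measured. *M4* was at 147, 190, and 140 CPM in *tsh1*, against 232, 137, and 156 CPM in B73. *M15* was at 24.3, 37.1, and 23.3 CPM in *tsh1*, against 38.15, 19.8, and 30.3 CPM in B73. Both overlapped, so the separation of the floral sum holds for its matched members only. The axillary sum was mostly *ba1*, whereas *ra1* was at 0.399, 0.401, and 0.651 CPM in *tsh1*, against 0.088, 0.106, and 0.257 CPM in B73 and *ra3* at 12.7, 12.6, and 11.4 CPM in *tsh1*, against 11.3, 7.84, and 9.69 CPM in B73, both higher in every mutant library. In the meristem list, *fea3* and *td1* had log2 fold changes of 0.82 and 0.32, with overlapping libraries. *Knotted1* (*kn1*), the defining meristem gene, was at 101, 113, and 203 CPM in *tsh1*, against 168, 157, and 211 CPM in B73. The sums of the epidermal and of the adaxial and vascular markers overlapped between genotypes. The part of these differences in the changes of the leaf, boundary, and hormone genes was not tested.

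**Figure D4:**
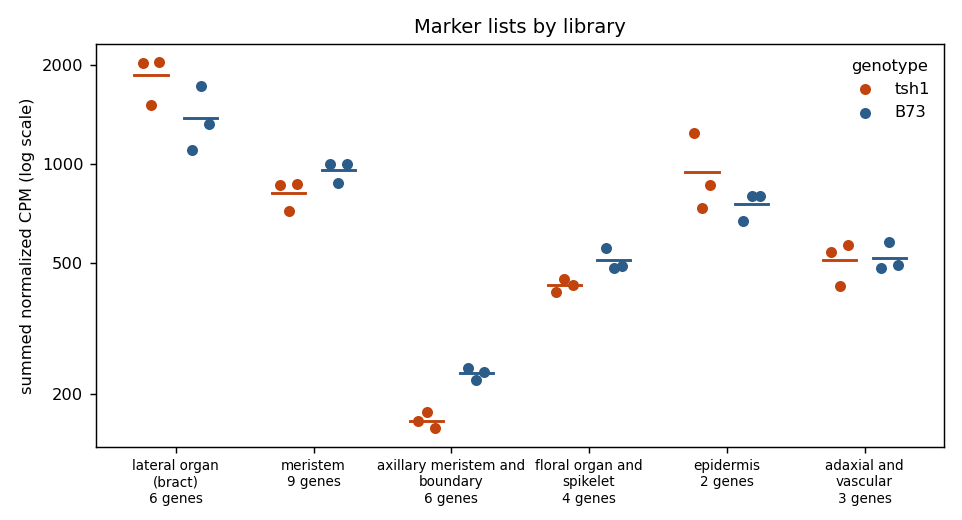
Summed normalized CPM (log scale) of 6 marker lists in each library, with *tsh1* left of B73 and bars at the means of 3. The sums for meristem, axillary meristem and boundary, and floral markers are lower in all *tsh1* libraries, while those of the other lists overlap. Sums cover matched symbols only, which for the floral list are 4 of 10.

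Auxin, which directs where organs start and how far they grow, was represented by called genes in both directions. *Zar1* (GRMZM2G446201), an auxin-inducible gene that promotes organ size, was at 1.53, 2.37, and 1.5 CPM in *tsh1*, against 0.592, 0.264, and 0.308 CPM in B73, a log2FC of 1.99 ± 0.35 (adjusted p = 0.00637). Its relative *ZAR3* (GRMZM2G137546) rose to 35.9, 36.5, and 40.0 CPM in *tsh1*, against 18.8, 14.2, and 18.8 CPM in B73 (log2 fold change 1.13). *SRS2* (GRMZM2G042407), of the SHI-related family whose Arabidopsis members activate auxin synthesis genes, was at 1.1, 2.23, and 1.52 CPM in *tsh1*, against 0.097, 0.106, and 0.12 CPM in B73 (log2FC 3.00 ± 0.33, adjusted p = 6.04e-05). These rises were seen in every mutant library, and those of *zar1* and *SRS2* held in all 6 fits without a library. *ZAR3* lost its call without replicate 3 of *tsh1* or replicate 2 of B73. Both *ZAR3* and *SRS2* were picked after their values were seen.

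*Yucca6* (GRMZM2G019515), which encodes a flavin monooxygenase of auxin synthesis, was at 0.169, 0.523, and 0.325 CPM in *tsh1*, against 1.82, 1.29, and 1.34 CPM in B73 (log2FC −1.91 ± 0.39, adjusted p = 0.0155). It fell in every mutant library, but the call was lost without replicate 1 or 3 of *tsh1* or replicate 1 of B73, with an adjusted p of up to 0.0988 by limma, or with a pseudocount of 1. *ZmTAR2*, ortholog of a tryptophan aminotransferase gene that acts before it, was at 0.338, 0.977, and 0.976 CPM in *tsh1*, against 0.309, 0.264, and 0.205 CPM in B73 (log2 fold change 1.16, adjusted p = 0.327) and was not called. *ZmIAA7* (GRMZM2G104176), of the Aux/IAA repressors that auxin induces, was at 129, 134, and 154 CPM in *tsh1*, against 73.5, 89.5, and 87.6 CPM in B73. *ZmIAA37* (GRMZM2G359924), of the same family, was at 17.2, 16.4, and 19.4 CPM in *tsh1*, against 10.8, 8.12, and 9.90 CPM in B73. Their adjusted p-values of 0.0381 and 0.0257 passed the threshold, but their log2 fold changes of 0.73 and 0.88 did not reach 1, so they do not count as DEGs. The 16 measured genes with an AUX name in the gene table, which these 2 also carry, had 1 lower call and none higher. Over all genes, 1.16% were called. The median log2 fold change of the 16 was −0.24. Libraries were separate in 6 genes lower and 2 higher in *tsh1*, beside 7.42% and 5.75% of all genes. The called gene was *AUX14* (GRMZM2G077356), at 13.1, 11.6, and 10.2 CPM in *tsh1*, against 18.8, 31.6, and 25.3 CPM in B73 (log2FC −1.09 ± 0.19, adjusted p = 0.00556), a call lost without replicate 3 of *tsh1* or replicate 2 of B73. *ZmGH3.1* (GRMZM2G366873), an ortholog of enzymes that conjugate auxin, was at 3.75, 10.7, and 4.84 CPM in *tsh1*, against 17.4, 13.6, and 23.6 CPM in B73 (log2 fold change −1.60, adjusted p = 0.126). Of the 10 auxin genes that the study names, 1 rose and none fell, beside calls in 1.16% of all genes. Log2 fold changes were positive in 9, with a median of 0.66. The study chose this list on these samples too, so its direction is not independent evidence. *ZmIAA5*, *ZmIAA16*, and *ZmIAA22* were at most at 0.109 CPM in any of the 6 libraries, and *ZmYUC8* at most at 0.338 CPM.

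Abscisic acid (ABA) restrains growth and keeps buds dormant. Of 12 ABA genes that the study names, 3 fell, 1 rose, and 8 did not pass the test, beside calls in 1.16% of all genes, with a median log2 fold change of −0.76. The study chose this list on these samples too. *ZmABO3* (GRMZM2G158328), ortholog of an Arabidopsis WRKY gene of ABA responses, was at 0.616, 1.13, and 0.672 CPM in *tsh1*, against 3.96, 2.36, and 3.29 CPM in B73 (log2FC −1.88 ± 0.29, adjusted p = 0.00160). *ZmCIPK1* (GRMZM2G170120), a calcium-dependent signaling kinase gene, was at 0.713, 1.94, and 1.39 CPM in *tsh1*, against 4.98, 3.73, and 4.49 CPM in B73 (−1.73, adjusted p = 0.0260), and *ZmANAC2* (GRMZM2G014653), a NAC transcription factor gene, at 2.61, 2.16, and 1.71 CPM in *tsh1*, against 8.22, 5.46, and 8.07 CPM in B73 (−1.70, adjusted p = 0.0373). *ZmAHG1* (GRMZM2G019819), whose product is a protein phosphatase 2C that represses ABA signaling, rose to 4.88, 7.97, and 4.84 CPM in *tsh1*, against 3.46, 1.22, and 1.44 CPM in B73 (log2 fold change 1.59, adjusted p = 0.0358). *ZmABO3* kept its call in all 6 fits without a library, whereas *ZmANAC2* lost it whichever library was left out, *ZmCIPK1* kept it only without replicate 2 of *tsh1*, and *ZmAHG1* kept it only without replicate 1 of B73 and was not called by edgeR. Their adjusted p-values reached 0.157, 0.153, and 0.184 by limma. The ABA receptor gene *ZmPYL5* (GRMZM2G144224) was at 1.04, 0.488, and 0.412 CPM in *tsh1*, against 2.11, 1.94, and 1.11 CPM in B73 (−1.33, adjusted p = 0.0985).

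The largest fall among the hormone genes was in the jasmonate pathway. *ZmJAR1* (GRMZM2G001421), ortholog of the Arabidopsis enzyme that joins jasmonate to isoleucine and so makes the active hormone, was at 0.870, 1.27, and 0.521 CPM in *tsh1*, against 14.5, 5.34, and 4.35 CPM in B73, a log2FC of −2.91 ± 0.49 (adjusted p = 0.00440). Its highest mutant library was below its lowest B73 library. *ZmLOX2* (GRMZM2G009479), a lipoxygenase gene of the first step of jasmonate synthesis, was at 1.57, 2.6, and 1.39 CPM in *tsh1*, against 5.24, 3.70, and 3.58 CPM in B73 (−1.16, adjusted p = 0.0687) and was not called. *TIFY15* (GRMZM2G005954), of the family that includes the jasmonate-responsive repressors, was at 109, 115, and 167 CPM in *tsh1*, against 437, 374, and 383 CPM in B73 (log2FC −1.64 ± 0.25, adjusted p = 0.00160). Of the 14 measured genes with a TIFY name, this 1 fell, none rose, and the median log2 fold change was −0.35, while 1.16% of all genes were called.

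None of the 4 cytokinin genes and none of the 7 gibberellin genes that the study names passed the test in *tsh1*. Their median log2 fold changes were −0.70 and −0.39. The libraries did not overlap in 1 cytokinin gene, lower in *tsh1*, and in 2 gibberellin genes, 1 higher and 1 lower, as in 13.2% of all genes. The higher one, *ZmSCL3*, was at most at 0.366 CPM in any of the 6 libraries, and *ZmGID1C* at most at 0.022 CPM. *ZmLOG7* (GRMZM2G073634), of the family that activates cytokinins, was at 0.266, 0.488, and 0.477 CPM in *tsh1*, against 0.583, 3.35, and 1.51 CPM in B73 (−1.64, adjusted p = 0.439 by limma). It lies 20 places after the deletion, where a difference carried by the chromosome segment cannot be told apart. *ZmGA2OX3* (GRMZM2G022679), of the enzymes that inactivate gibberellins, was at 34.2, 25.4, and 20.1 CPM in *tsh1*, against 41.5, 42.9, and 61.4 CPM in B73 (−0.88, adjusted p = 0.299 by limma). Outside the study's list, the response regulator gene *crr2* (GRMZM2G392101) rose to 5.92, 4.01, and 4.45 CPM in *tsh1*, against 1.3, 1.06, and 2.02 CPM in B73 (log2 fold change 1.68). This gene was picked after its values were seen, and its call was lost without replicate 1 of *tsh1* or replicate 1 or 2 of B73. Over all 56 names of the study, 5 rose, 4 fell, and 47 were not called, beside 0.441% of all genes called higher and 0.719% lower. The study chose these names on these samples, so the count is not independent evidence.

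**Figure D5:**
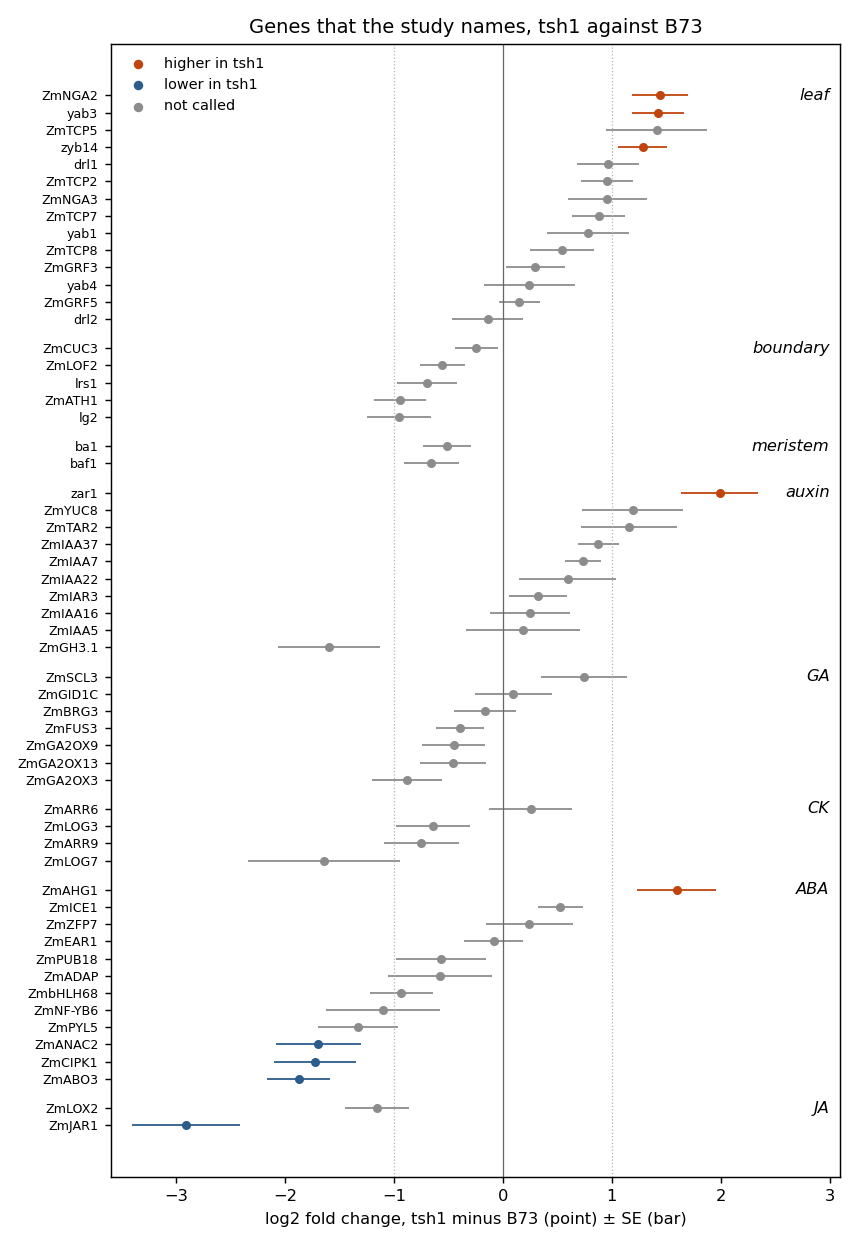
Log2 fold change in *tsh1* relative to B73 (point) with its SE (bar) for the 56 genes that the study names, grouped by role (GA, gibberellin, CK, cytokinin, ABA, abscisic acid, JA, jasmonate). Dotted lines mark a log2 fold change of 1 in either direction. The 14 leaf genes lie mostly to the right and the 5 boundary genes to the left. Called are 9 of the 56 genes, which the study chose on these samples, beside 1.16% of all genes.

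SBP-box genes, the family of *tsh4*, were called in both directions. Of the 19 measured, *sbp29* rose, *sbp23* fell, and the other 17 did not pass the test, beside calls in 1.16% of all genes, and the median log2 fold change was 0.04. *Sbp29* (GRMZM2G067624) was at 693, 427, and 539.8 CPM in *tsh1*, against 195, 199, and 214 CPM in B73, a log2FC of 1.42 ± 0.20 (adjusted p = 7.05e-04). *Sbp23* (GRMZM2G126018) was at 52.7, 78.6, and 48.5 CPM in *tsh1*, against 204, 160.3, and 122 CPM in B73 (log2FC −1.43 ± 0.24, adjusted p = 0.00397). Both were among the 12 DEGs that reached a mean of 100 CPM, and both calls held in all 6 fits without a library. *Tsh4* (GRMZM2G307588), which also suppresses bracts and which the study places upstream of *tsh1*, was at 822, 1359.7, and 1007 CPM in *tsh1*, against 1553, 1359, and 1059 CPM in B73, with overlap.

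MADS-box genes are known for roles in flowering and floral organs. None of the 12 genes with MADS in a name was called, beside 1.16% of all genes, and their median log2 fold change was −0.06. A second set, the 13 measured genes with names of the form m19 or zmm19, was collected after its values were seen. Of these, 3 fell, none rose, and the median was −0.37, beside 0.719% of all genes called lower. *Zmm19* (GRMZM2G370777), whose ectopic expression causes the pod corn mutant *Tunicate1*, was at 6.08, 3.51, and 5.33 CPM in *tsh1*, against 10.2, 14.7, and 20.8 CPM in B73 (log2FC −1.57 ± 0.34, adjusted p = 0.0252). *M21* (GRMZM5G814279) was at 5.20, 7.76, and 7.94 CPM in *tsh1*, against 15.5, 22.1, and 16.2 CPM in B73 (−1.36 ± 0.24, adjusted p = 0.00647), and *m26* (GRMZM2G046885) at 7.11, 2.91, and 2.91 CPM in *tsh1*, against 8.56, 12.9, and 16.4 CPM in B73 (−1.61 ± 0.37, adjusted p = 0.0391). The product of *zmm19* and those of *m21* and *m26* belong to the clade of the Arabidopsis floral repressor SVP. *M21* kept its call in all 6 fits without a library, while *zmm19* and *m26* lost it without replicate 2 or 3 of *tsh1* or of B73, with adjusted p-values of up to 0.133 and 0.182, and *m26* was not called by edgeR.

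Other transcription factor genes with large changes were *GATA28* and *bHLH23*. Except for *GATA28* and *bHLH23*, the genes named here were picked after their values were seen. *GATA28* (GRMZM2G101058), of the same DNA-binding family as *tsh1*, was at 0.06, 0.052, and 0.108 CPM in *tsh1*, against 2.04, 1.41, and 0.822 CPM in B73 (log2FC −3.07 ± 0.39, adjusted p = 3.03e-04), whereas the other 4 genes named GATA in the table had log2 fold changes of −0.24 to 0.22 and were not called. *BHLH23* (GRMZM2G178182) was at 14.8, 9.68, and 26.6 CPM in *tsh1*, against 0.697, 1.11, and 3.12 CPM in B73 (log2FC 3.43 ± 0.40, adjusted p = 1.39e-04). Of 32 measured genes with a bHLH name, 2 rose, the other being *bHLH36* (log2 fold change 1.80), and none fell, beside 0.441% of all genes called higher. The median of the 32 was −0.16. The libraries were separate in 10 genes lower and in 2 higher in *tsh1*, beside 7.42% and 5.75% of all genes. Single members of further families also changed. *GRAS19* and *PLTZ8* rose, with log2 fold changes of 1.33 and 1.26. The WUSCHEL-related homeobox gene *wox9B*, the ovate family gene *OFP29*, and *Nkd2*, a zinc finger gene known from the endosperm, fell by 1.03, 1.0, and 1.21 on the log2 scale. Of the genes in this paragraph, *GATA28* and *bHLH23* kept their calls in all 6 fits without a library, and *bHLH36* lost its call without replicate 3 of *tsh1* or of B73. *GRAS19* kept its call only without replicate 2 of *tsh1* or replicate 3 of B73, *wox9B* only without replicate 1 of *tsh1* or replicate 3 of B73, *PLTZ8* only without replicate 3 of B73, *OFP29* only without replicate 3 of *tsh1*, and *Nkd2* only without replicate 2 of *tsh1*. *Nkd2* was not called by edgeR, and *wox9B*, *PLTZ8*, *OFP29*, and *Nkd2* were not called with a pseudocount of 1. None of the 4 KNOX genes, 5 TCP genes, or 17 growth-regulating factor genes found by name was called, beside 1.16% of all genes.

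Genes of nitrogen and sugar metabolism were among the DEGs with a name, and those given here were picked after their values were seen. *GLN6* (GRMZM2G050514), a glutamine synthetase gene, was at 0.193, 0.628, and 0.239 CPM in *tsh1*, against 4.67, 1.90, and 2.35 CPM in B73 (log2FC −2.78 ± 0.39, adjusted p = 7.08e-04), and the nitrate reductase gene *NR* (GRMZM5G878558) was at 0.459, 0.907, and 1.43 CPM in *tsh1*, against 4.55, 3.38, and 5.12 CPM in B73 (−2.21 ± 0.38, adjusted p = 0.00556). For both genes, the mutant libraries all lay below those of B73. *Sus2* (GRMZM2G318780), a sucrose synthase gene, fell to 4.77, 3.63, and 4.66 CPM in *tsh1*, against 10.3, 11.7, and 9.50 CPM in B73 (log2 fold change −1.26). *Ivr2* (GRMZM2G089836), an invertase gene, rose to 1.54, 1.06, and 1.22 CPM in *tsh1*, against 0.247, 0.282, and 0.565 CPM in B73 (log2 fold change 1.61). The starch synthase gene *waxy1* (GRMZM2G024993) rose by 1.0 on the log2 scale, and *thi2* (GRMZM2G074097), of thiamine synthesis, fell by 1.28. The glutathione transferase genes *gst6* and *gst31* fell by 1.87 and 2.29, the 2 calls among 15 measured genes with a GST name, beside 1.16% of all genes. The call of *waxy1* was lost without replicate 3 of *tsh1* or replicate 2 or 3 of B73, that of *gst6* without replicate 3 of *tsh1* or replicate 1 or 3 of B73, that of *gst31* without replicate 3 of *tsh1* or replicate 1 of B73, and that of *thi2* without replicate 1 of *tsh1*, while the other 4 genes kept theirs. With a pseudocount of 1, *ivr2*, *waxy1*, *gst6*, and *gst31* were not called.

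The largest rises outside the deletion were found in genes without a name in the table, while named genes were among the other large changes. GRMZM2G456853 was at 36.1, 28.5, and 58.8 CPM in *tsh1*, against 0, 0, and 0 CPM in B73, at least 943-fold higher against the floor. GRMZM2G120833 was at 17.5, 19.3, and 20.6 CPM in *tsh1*, against 0.009, 0.018, and 0 CPM in B73, or 1448, 1105, and 948 reads in *tsh1*, against 1, 1, and 0 reads in B73. Neither has a place in the chromosome order used here. Among falls, GRMZM2G145563 was at 0.218, 0, and 0 CPM in *tsh1*, against 3.50, 3.12, and 3.03 CPM in B73 (log2FC −4.49 ± 0.38, adjusted p = 3.18e-06), and *MGL3* (GRMZM2G096475), 89 places before the deletion, at 1.1, 0.558, and 0.043 CPM in *tsh1*, against 8.78, 6.40, and 6.11 CPM in B73 (−3.88 ± 0.53, adjusted p = 6.34e-04). All 4 genes separated the genotypes in every library and kept their calls without any 1 library. Of the 24 largest changes, 12 in each direction, among the DEGs whose mean reached 1 CPM, the 10 rises other than these had log2 fold changes of 2.46 to 3.75 and the 12 falls of −2.39 to −5.49. The call of 1 of them, GRMZM2G007969, was lost without replicate 1 of *tsh1* or with a pseudocount of 1.

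Some genes were detected in only 1 genotype, that is, above 3 reads in all its libraries and at or below 3 reads in all libraries of the other. Outside the deletion, 16 genes were detected in *tsh1* only and 10 in B73 only, of which 11 and 5 were DEGs. In 4 of the *tsh1*-only genes the B73 libraries held no read at all, while each of the 10 B73-only genes had at least 1 read in a mutant library. GRMZM2G526748 was at 0.411, 0.419, and 0.455 CPM in *tsh1*, against 0, 0, and 0 CPM in B73, at least 9.83-fold higher in *tsh1* against the floor. GRMZM2G101928 was at 0.024, 0, and 0 CPM in *tsh1*, against 1.84, 1.37, and 2.02 CPM in B73, with 2 reads over the mutant libraries. Of the 26 genes, 2 lie within 100 places of the deletion, and 1 of them was called. This was GRMZM2G079661, 86 places before it, at 0.894, 0.942, and 0.933 CPM in *tsh1*, against 0, 0.018, and 0 CPM in B73.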

How the data were processed

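The deposited signal is a normalized CPM value for each of 20168 genes and 12 libraries. Per the study's methods and processing notes, the authors trimmed single-end reads (Trimmomatic 0.36), aligned them to B73 RefGen_v3 (STAR 2.6.0a), counted them per gene (featureCounts), and normalized the counts by TMM (edgeR 3.22.5). The strand setting of the counting is not given in the sources used here, so overlapping and antisense genes, and near-identical copies, cannot be told apart. RNA amplified from captured cells can lose 5′ ends and add spread to weakly expressed genes.

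Differences were fitted with limma 3.58.1 (R 4.3.3) on log2(CPM + 0.1), with 4 genotype means over 12 libraries, an intensity trend, and Benjamini-Hochberg adjustment over 20168 genes. The deposited values were whole multiples of 1 read in 100.0% of cases per library at the 3 decimals given, and edgeR 4.0.16 and DESeq2 1.42.0 were run on the recovered reads as alternatives. The fits were checked on simulated data. Gene names and chromosome order came from the gene table of Zm-B73-REFERENCE-NAM-5.0, which matched 14381 identifiers (71.3%), and lists found by name hold only genes with a symbol or synonym there. The 50 nearest placed genes on each side of the deletion were counted, with other windows as alternatives. Genes are named where they are in the deletion, are named by the study, are DEGs in a list or near the deletion, or are among the 12 largest rises or falls whose mean reached 1 CPM, while other named genes were picked after their values were seen. All members and lists were chosen with earlier results of these data known.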

Additional observations from a re-analysis of the deposited data

How the results depend on the processing

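No named DEG changed direction under any alternative in which it was tested. Of the named genes that were not called, 6 changed sign in fits that left out 1 library, and none was called there. Their log2 fold changes over these fits ran between −0.51 and 0.12 for *drl2*, −0.035 and 0.28 for *ZmGRF5*, −0.089 and 0.53 for *ZmARR6*, −0.41 and 0.14 for *ZmEAR1*, −0.29 and 0.64 for *ZmZFP7*, and −0.37 and 0.11 for *ZmBRG3*. The count of 234 DEGs (89 higher, 145 lower) was 150 (56 higher, 94 lower) with a pseudocount of 1, 370 (144 higher, 226 lower) with DESeq2, 135 at an adjusted p of at most 0.01, and 287 with no threshold on the fold change. It lay between 184 and 250 with a pseudocount of 0.01, a mean of at least 1 CPM, or only the 6 libraries in the fit. The same range held with no intensity trend, equal library totals, median centring, or edgeR. Without the deletion and the genes placed within 100 places of it, 211 DEGs remained, 72 of them without a known place. Leaving out 1 library gave 156 to 286 in all, 60 to 95 higher, 89 to 191 lower, 7 to 10 within 50 places of the deletion, and 6 to 10 among the genes that the study names. The share called next to the deletion was 5.0% within 10 places, 12% within 25, 13.6% within 100, and 9.17% within 200, against 10% within 50. Of the 234 DEGs, 145 were kept with a pseudocount of 1, 215 with edgeR, and 231 with DESeq2. With the replicate number as a replicate block, 193 genes were called, 188 of them among the 234, but same-numbered libraries had deviations correlated at −0.15, −0.35, and 0.29, so the numbers are not taken to pair the libraries. With 3 libraries a genotype, an exact permutation test of a single gene cannot go below 0.1, and weakly expressed genes are limited by reads: 25 DEGs were under 1 CPM in both genotypes.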
